A study of Drosophila melanogaster with 20 samples.

Results

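The 8 antimicrobial peptide genes described here are AttA, AttB, AttC, Dpt, DptB, Dro, Drs and Mtk, taken from the table of normalized counts by their symbols. All 8 were present among the 9831 genes of the table, and all 8 passed the filter on low values. The libraries were made from heads of adult male Drosophila melanogaster, each from 25 to 30 pooled heads, with polyA-selected RNA read as 50 bp single reads. The males came from populations of both sexes kept together. The 4 groups were midlife chm/+ males of 22 to 23 days (5 libraries), young chm/+ males of 7 days (6 libraries), midlife wild-type males of 22 to 23 days (4 libraries) and young wild-type males of 7 days (5 libraries). The chm/+ flies carried 1 mutant copy of chm (chameau), which encodes a MYST-family histone acetyltransferase, and the study asked how ageing acted in wild type and in the mutant. The labels used here did not name the chm allele or the wild-type strain.

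In Drosophila, antimicrobial peptides are small secreted proteins made by the fat body, by barrier epithelia and by blood cells after infection. Their genes are switched on by the Imd pathway, whose NF-kappaB factor is Relish, and by the Toll pathway, whose factors are Dorsal and Dif. Attacins and diptericins act chiefly against Gram-negative bacteria and are standard readouts of Imd, while Drosomycin is an antifungal peptide and a standard readout of Toll. A head library holds brain, eye, cuticle, muscle, blood cells and the fat body around the brain, so more cells of a type and more RNA per cell cannot be told apart in these data.

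The normalized counts summed to between 27572012 and 30470376 per library. Replicate libraries correlated at 0.972 to 0.997 on the log2 scale over all genes. Where nothing says that libraries of a group came from separate cultures, the p-values measure the spread between these libraries only. The chm gene averaged 336 ± 22 normalized counts in midlife chm/+ and 321 ± 24.6 in young chm/+, against 613 ± 46.3 in midlife wild type and 615 ± 36.6 in young wild type (SD, n = 5, 6, 4 and 5). The groups of the 2 genotypes did not overlap for chm. Markers of neurons (7 of 7), photoreceptors (9 of 9) and glia (5 of 5) were present in the table, and none of the 9 male reproductive tract markers was. Libraries are named by their column headers, which give the group but not the individual sample. Libraries 2uo2, CHMo12 and CHMy2 stood apart from their groups over all genes or in yolk protein transcripts, and results are also given without them.

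Each of the 8 peptide genes was higher in midlife than in young heads, in both genotypes. In chm/+ heads the 8 genes rose 15.9-fold (Dpt) to 26.1-fold (Drs), and in wild-type heads they rose 7.22-fold (Mtk) to 11.9-fold (DptB). By limma, 8 of 8 rose and 0 fell in chm/+, where 8.63% of all genes rose and 7.36% fell, and 8 of 8 rose and 0 fell in wild type, where 12.4% of all genes rose and 11.3% fell. The median log2 change of the members was 4.48 in chm/+, against -0.01 over all genes, and 3.17 in wild type, against -0.02 over all genes. Without 2uo2, CHMo12 and CHMy2 the counts were 8 in chm/+ and 8 in wild type, with medians of 4.75 and 3.50. But 2uo2 was the lowest midlife wild-type library for 7 of the 8 members, and CHMo12 the lowest midlife chm/+ library for 8 of 8. Leaving them out raises the midlife means, so the unchanged counts are no independent check of the rise.

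The summed level of the 8 genes lay between 43703 and 238029 normalized counts in midlife chm/+ libraries (median 101394) and between 3881 and 9447 in young chm/+ libraries (median 5009). In midlife wild-type libraries the sum lay between 35372 and 105478 (median 69526), and in young wild-type libraries it lay between 1529 and 46498 (median 5118). As a share of the column total, the 8 genes took 0.149% to 0.807% in midlife chm/+ and 0.013% to 0.033% in young chm/+. Their share was 0.127% to 0.373% in midlife wild type and 0.00555% to 0.166% in young wild type. The sums did not overlap between ages in chm/+, and they overlapped in wild type through 1 young library, 2uy3, at 46498. Gene by gene, all midlife libraries lay above all young libraries for 8 of 8 members in chm/+, against 4.59% of all genes. In wild type this held for 2 of 8 members, against 10.9% of all genes, and without 2uy3 it held for 8 of 8, against 11.4%. But 2uy3 was picked from the members' own values, each of which peaked there among young wild type. Part of the increase to 8 of 8 therefore follows from that choice. The 11.4% leaves out 2uy3 for every gene, not each gene's own top young library, so it is no like-for-like background.

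**Figure D1:**
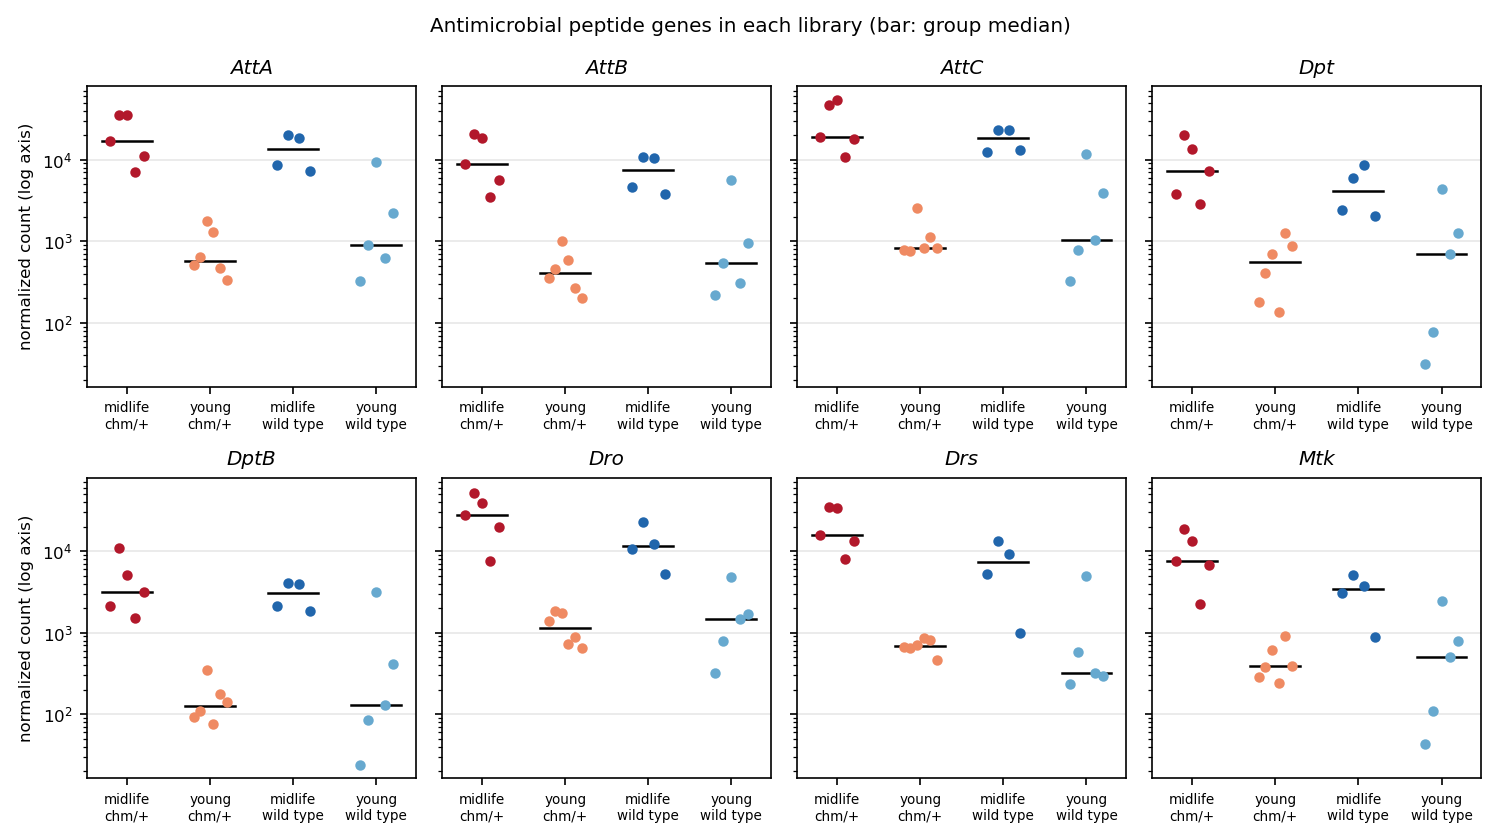
Normalized count (log axis) of each of the 8 antimicrobial peptide genes in every library of the 4 groups; points are libraries and bars are group medians. In chm/+ all midlife points lie above all young points for the 8 genes, whereas 1 young wild-type library, 2uy3, lies among or near the midlife wild-type points.

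Among the attacins, AttC had 18902, 46297, 54327, 10786 and 17661 normalized counts in midlife chm/+ libraries CHMo2, CHMo3, CHMo11, CHMo12 and CHMo5, against a lowest of 766, a median of 833 and a highest of 2576 in the 6 young chm/+ libraries. In wild type, AttC had 12442, 23300, 23248 and 13303 in midlife libraries 2uo4, 2uo5, 2uo1 and 2uo2, against 322, 784, 11712, 1046 and 3926 in young libraries 2uy1 to 2uy5. AttC was higher in every midlife library than in every young library of the same genotype, and in wild type the nearest pair was 12442 in 2uo4 and 11712 in 2uy3. AttC rose by 4.55 on the log2 scale in chm/+ (SE 0.66, adjusted p = 9.18e-05) and by 3.37 in wild type (SE 0.74, adjusted p = 0.00228; limma, Benjamini-Hochberg over all genes).

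AttA and AttB, neighbouring genes with near-identical coding sequences, followed the same order. AttA had 16790, 35434, 34897, 7007 and 10973 normalized counts in midlife chm/+ libraries, in the library order used for AttC, against a lowest of 334, a median of 575 and a highest of 1751 in young chm/+. In wild type AttA had 8674, 19978, 18175 and 7296 in midlife libraries, against 329, 907, 9439, 632 and 2228 in young libraries. The young library 2uy3 exceeded 2uo4 and 2uo2 for AttA, and the chm/+ ages did not overlap. AttB had 8755, 20824, 18206, 3529 and 5691 in midlife chm/+, against a lowest of 202, a median of 406 and a highest of 1002 in young chm/+. In midlife wild type AttB had 4601, 10916, 10385 and 3758, against 218, 536, 5620, 305 and 965 in young wild type. For AttB too, 2uy3 exceeded 2uo4 and 2uo2 and the chm/+ ages did not overlap. AttA rose by 4.61 (SE 0.67) in chm/+ and 3.20 (SE 0.74) in wild type, and AttB rose by 4.42 (SE 0.66) in chm/+ and 3.17 (SE 0.73) in wild type. Since 50 bp reads from the shared stretches of AttA and AttB could be assigned to either gene, how the reads divide between these genes is uncertain. The ratio of AttA to AttB stayed between 1.70 and 1.99 in midlife chm/+, 1.38 and 2.19 in young chm/+, 1.75 and 1.94 in midlife wild type, and 1.51 and 2.31 in young wild type.

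The diptericins, Dpt and its neighbour DptB, had the widest spread among the 5 young wild-type libraries. Dpt had 3746, 20032, 13387, 2896 and 7169 normalized counts in midlife chm/+ libraries, against a lowest of 134, a median of 551 and a highest of 1263 in young chm/+. In wild type Dpt had 2409, 5879, 8720 and 2058 in midlife libraries, against 31.7, 78.1, 4377, 691 and 1273 in young libraries. Dpt varied 138-fold among the young wild-type libraries, against 9.41-fold among the young chm/+ libraries. DptB had 2138, 10824, 5069, 1514 and 3164 in midlife chm/+, against a lowest of 76.7, a median of 126 and a highest of 346 in young chm/+. In midlife wild type DptB had 2155, 4049, 3972 and 1852, against 24.2, 84.8, 3199, 129 and 419 in young wild type. The ages did not overlap in chm/+ for either diptericin, and in wild type 2uy3 exceeded 2uo4 and 2uo2 for both. DptB rose by 4.53 (SE 0.78, adjusted p = 0.000442) in chm/+ and by 3.58 (SE 0.87, adjusted p = 0.0051) in wild type. Dpt rose by 3.99 (SE 0.93, adjusted p = 0.00538) in chm/+ and by 3.18 (SE 1.03, adjusted p = 0.0302) in wild type. The wild-type call for Dpt was lost without 2uo5 (adjusted p = 0.0852), 2uo1 (0.0837), 2uy1 (0.089) or 2uy2 (0.0828). It was also lost in a fit of the wild-type groups alone, in the first or last 10 columns alone, and with the column number as a block.

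Dro encodes Drosocin, a proline-rich peptide active against Gram-negative bacteria, and lies next to AttA. Dro had 27849, 50925, 38832, 7673 and 19802 normalized counts in midlife chm/+ libraries, against a lowest of 642, a median of 1136 and a highest of 1831 in young chm/+. In wild type Dro had 10486, 23005, 12326 and 5210 in midlife libraries, against 325, 783, 4769, 1487 and 1709 in young libraries. Dro and AttC were the members whose ages did not overlap in wild type with all libraries kept. Dro rose by 4.43 (SE 0.57, adjusted p = 2.11e-05) in chm/+ and by 3.13 (SE 0.63, adjusted p = 0.00114) in wild type.

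Drs encodes Drosomycin, and of the 8 genes it alone lies on chromosome arm 3L, while the other 7 lie on 2R. Drs had 15575, 35157, 33824, 8035 and 13341 normalized counts in midlife chm/+ libraries, against a lowest of 467, a median of 689 and a highest of 863 in young chm/+. In wild type Drs had 5261, 13264, 9347 and 1007 in midlife libraries, against 236, 579.7, 4939, 318 and 299 in young libraries. Young chm/+ libraries were close together for Drs, at 695 ± 139 (SD, n = 6), and 5 of the 6 lay above 4 of the 5 young wild-type libraries, CHMy12 at 467 and 2uy3 at 4939 being the exceptions. In midlife, each chm/+ library but CHMo12 lay above every wild-type library, and 2uo2 at 1007 lay far below its group and below 2uy3. Drs rose by 4.71 (SE 0.68, adjusted p = 8.22e-05) in chm/+ and by 3.09 (SE 0.75, adjusted p = 0.00532) in wild type.

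Mtk encodes Metchnikowin, a proline-rich peptide active against fungi and Gram-positive bacteria. Mtk had 7639, 18536, 13392, 2262 and 6709 normalized counts in midlife chm/+ libraries, against a lowest of 245, a median of 390.1 and a highest of 909 in young chm/+. In wild type Mtk had 3114, 5088, 3740 and 887 in midlife libraries, against 43.5, 109, 2442, 510.2 and 799 in young libraries. The ages did not overlap in chm/+, and in wild type 2uo2 lay below 2uy3. Mtk rose by 4.14 (SE 0.75, adjusted p = 0.000706) in chm/+ and by 2.85 (SE 0.83, adjusted p = 0.0171) in wild type. The wild-type call for Mtk was lost without 2uo5 (adjusted p = 0.0659) or 2uy1 (0.051). It was also lost in a fit of the wild-type groups alone and in the last 10 columns alone.

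Leaving out 2uy3 took the wild-type changes to 3.90 for AttA and AttB, 4.07 for AttC, 4.01 for Dpt, 4.52 for DptB, 3.61 for Dro, 3.85 for Drs and 3.53 for Mtk. Leaving out 2uy1 had the opposite effect, with changes of 2.71 for AttA, 2.75 for AttB, 2.79 for AttC, 2.36 for Dpt, 2.92 for DptB, 2.66 for Dro, 2.77 for Drs and 2.18 for Mtk, and 6 of 8 called. The members' median was 3.90 without 2uy3 and 2.73 without 2uy1, and without 2uo2 the Drs change was 3.86. Within the first 10 columns of the table alone, 7 members were called in chm/+ and 5 in wild type, and within the last 10 alone 8 were called in chm/+ and 3 in wild type. The median changes of the members in the first and last 10 columns were 4.74 and 4.44 in chm/+, and 3.61 and 3.18 in wild type.

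**Figure D2:**
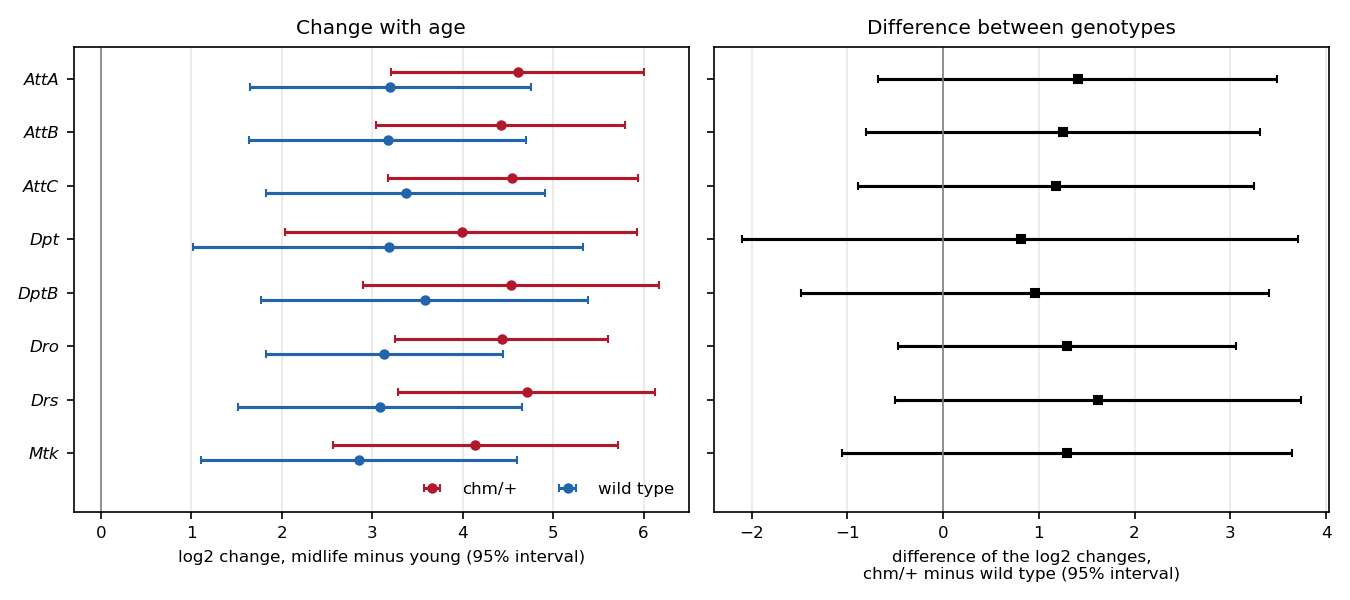
Left, log2 change from limma (midlife minus young) of each gene in chm/+ and in wild type; right, the difference of those changes (chm/+ minus wild type). Points are estimates and bars 95% intervals. All intervals on the left lie above 0, and all on the right include 0, Drs having the largest estimate at 1.62.

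Whether the age change differed between the genotypes was tested directly. The estimates were higher in chm/+ for 8 of 8 members, by 0.81 (Dpt) to 1.62 (Drs) on the log2 scale, with a median of 1.27, but no member passed the test. By limma, 0 of 8 members had an adjusted p under 0.05, where 0.356% of all genes did, and 0 of 8 had an unadjusted p under 0.05, where 6.66% of all genes did. The 95% interval of the difference ran from -0.50 to 3.74 for Drs, from -0.47 to 3.06 for Dro and from -2.10 to 3.71 for Dpt. These intervals hold both no difference and differences of several fold. The estimates moved with single wild-type libraries: the median difference was 0.57 without 2uy3, 0.89 without 2uo2 and 1.77 without 2uy1. Without 2uy3 the difference was 0.70 for AttA, 0.82 for Dro, 0.02 for DptB and -0.02 for Dpt, and without 2uy1 it was 1.62 for Dpt and 1.61 for DptB. Without 2uo2 it was 0.85 for Drs and 0.76 for Mtk.

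The 2 genotypes were also compared at each age, in contrasts that share their libraries with those above. In midlife heads the 8 members were all higher in chm/+ in the estimates, by 0.33 (DptB) to 1.84 (Drs) with a median of 0.69, and by limma 0 of 8 were called, where 1.95% of all genes were. At an unadjusted p under 0.05 the count was 1 of 8, Drs, where 13.3% of all genes had such a p. Drs averaged 21186 ± 12459 normalized counts in midlife chm/+ and 7219 ± 5275 in midlife wild type (SD, n = 5 and 4), a log2 difference of 1.84 with a 95% interval from 0.27 to 3.41 and an adjusted p of 0.293. Without 2uo2 the Drs difference was 1.07. With 1 library left out the median of the members ran from 0.39 (without CHMo3) to 1.01 (without CHMo12), with 0.45 without CHMo11 and 0.47 without 2uo2. The estimate for DptB turned to -0.08 without CHMo3. Mtk differed by 1.53 (interval -0.22 to 3.27) and Dro by 1.12 (interval -0.19 to 2.43), while AttA, AttB and AttC differed by 0.47 to 0.51. In young heads the estimates ran from -0.91 (AttA) to 0.23 (Mtk), 3 of 8 were positive, and the median was -0.41. By limma 0 of 8 were called in young heads, where 1.45% of all genes were, and 0 of 8 had an unadjusted p under 0.05, where 15.3% of all genes did. With 1 library left out that median ran from -0.98 (without 2uy1) to 0.30 (without 2uy3), with -0.70 without 2uy2. The genotypes overlapped for 8 of 8 members at both ages. Over all genes, all chm/+ libraries lay above all wild-type libraries for 2.09% of genes in midlife and 1.59% in young heads, and below them for 2.39% in midlife and 1.18% in young heads.

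The members differed in how much they varied within a group. The SD of the log2 values among young wild-type libraries ran from 1.41 (Dro) to 2.72 (Dpt), against 0.30 (Drs) to 1.24 (Dpt) among young chm/+ libraries. Among midlife libraries it ran from 0.91 (Drs) to 1.18 (Dpt) in chm/+ and from 0.49 (AttC) to 1.64 (Drs) in wild type. Young wild type was thus the most spread group for each of the 8 genes, and this spread was not tested between groups. For 8 of 8 members the top young wild-type library was 2uy3 and the bottom one was 2uy1. CHMo12 was the lowest midlife chm/+ library for 8 of 8 and CHMo3 the highest for 7. 2uo2 was the lowest midlife wild-type library for 7 of 8 and 2uo5 the highest for 7. On average over the 8 genes 2uy3 lay 2.91 log2 units above its group mean and 2uy1 lay at -2.21 from it.

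**Figure D3:**
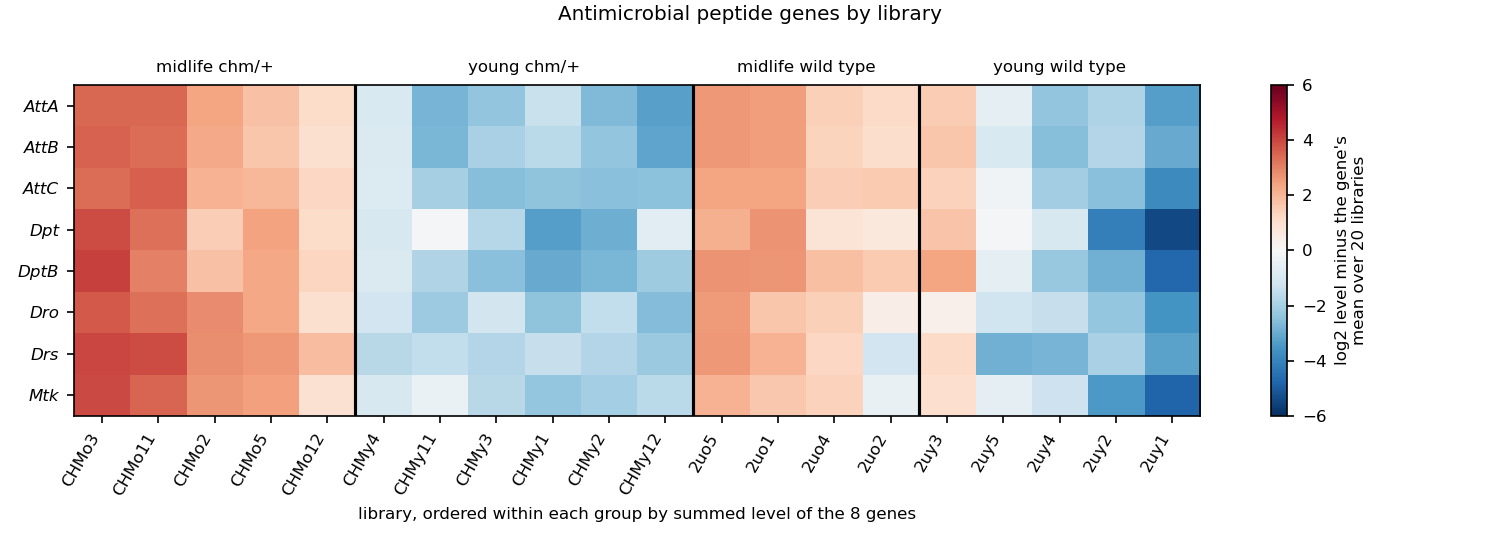
Log2 level of the 8 genes (rows) in the 20 libraries (columns, by group and then by summed level), each minus the gene's mean over all libraries; red is above and blue below that mean. Columns tend to be of 1 colour, with 2uy3 the red column in young wild type and 2uo2 pale or blue for Drs and Mtk in midlife wild type.

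After each group's mean was subtracted, the members rose and fell together across the 20 libraries. Over the 28 pairs of members Pearson's r ran from 0.58 (Dpt with Drs) to 0.99 (AttA with AttB), with a median of 0.83, and Spearman's rho ran from 0.42 to 0.98. These values are a description over libraries, and the extremes 2uy3 and 2uy1 carried part of them: over the other 18 libraries r ran from 0.29 to 0.98.

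Drs departed from the attacins in some libraries. The ratio of Drs to AttC normalized counts, compared between libraries only, was 0.623 to 0.824 in midlife chm/+ and 0.276 to 1.03 in young chm/+. In midlife wild type it was 0.0757 to 0.569 and in young wild type 0.0762 to 0.739. All 5 midlife chm/+ libraries had a higher ratio than all 4 midlife wild-type libraries. The ratio was chosen after its values were seen, so that separation was given no test. The low ends in wild type were libraries 2uo2 and 2uy5, in which Drs was lower against AttC than in the other libraries. Of the summed level of the 8 genes, Drs made up 14.8% to 18.4% in midlife chm/+, 7.52% to 18.1% in young chm/+, 2.85% to 12.6% in midlife wild type and 2.57% to 15.4% in young wild type.

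**Figure D4:**
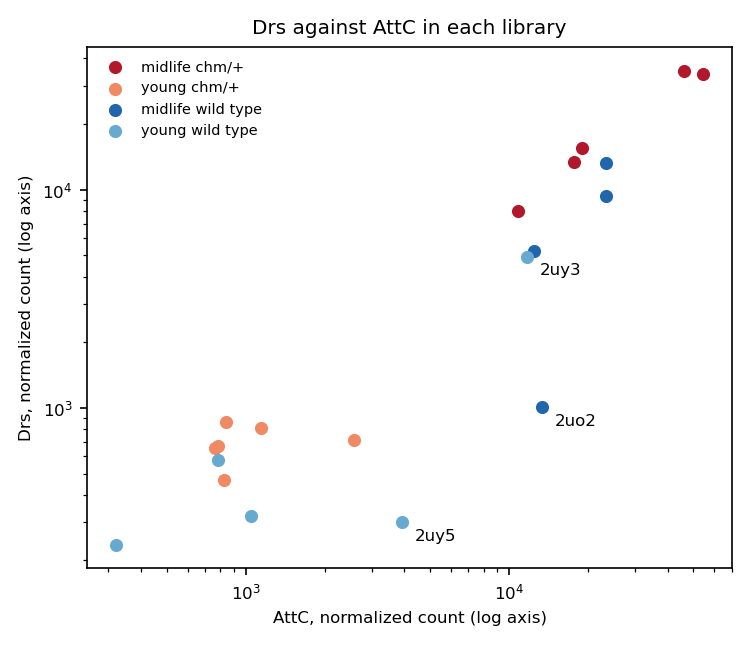
Normalized count of Drs against that of AttC in each of the 20 libraries (both axes log), coloured by group. The midlife chm/+ points lie in a narrow band at ratios of 0.623 to 0.824, while wild-type libraries 2uo2 and 2uy5 lie low on the Drs axis for their AttC level, at 0.0757 and 0.0762.

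Levels of different genes were compared per kilobase of exon, with lengths from the BDGP6 annotation. In midlife chm/+ heads the order of the mean levels per kilobase was Drs (54745 ± 32193), Dro (38483 ± 22174), Mtk (36222 ± 23616), AttC (32883 ± 21525), AttA (26608 ± 16930), Dpt (19044 ± 14544), AttB (12970 ± 8751) and DptB (10116 ± 8377; SD, n = 5). In midlife wild type AttC (20081 ± 6684), Drs (18655 ± 13632), AttA (17127 ± 8191) and Dro (16919 ± 9905) led, followed by Mtk (11968 ± 6539), Dpt (9609 ± 6350), AttB (8436 ± 4275) and DptB (6697 ± 2597; SD, n = 4). Neighbours in both orders differed by less than their SDs. DptB had the lowest mean per kilobase in each of the 4 groups, and in young chm/+ heads Drs had the highest, 1796 ± 359, next to Mtk at 1762 ± 926 (SD, n = 6).

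Outside the 8 members, 8 of 13 further antimicrobial peptide genes were in the table. In chm/+ 5 rose and 1 fell (median 2.13), and in wild type 4 rose and 0 fell (median 1.81), against 8.63% and 12.4% of all genes that rose. AttD, an attacin without a signal peptide, averaged 459 ± 82.9 normalized counts in midlife chm/+ and 76.7 ± 41.1 in young chm/+ (SD, n = 5 and 6), and 809 ± 218 in midlife and 146 ± 82.7 in young wild type (SD, n = 4 and 5). AttD rose by 2.52 (SE 0.38) in chm/+ and 2.53 (SE 0.42) in wild type, with no overlap between ages in either. The cecropin CecA1, a peptide that disrupts bacterial membranes, rose by 3.49 in chm/+ and 2.96 in wild type. CecC rose by 2.26 in chm/+, and its change of 1.74 in wild type did not pass (limma, adjusted p = 0.0603). CecB rose by 2.00 in chm/+ and 1.88 in wild type, and CecA2 by 2.95 in chm/+ and 2.68 in wild type. CecB was low, at 14.6, 327, 187 and 10.3 normalized counts in midlife wild-type libraries 2uo4, 2uo5, 2uo1 and 2uo2. Among young wild-type libraries, 2uy3 was on top for each of these cecropin genes. It lay above midlife libraries 2uo4 and 2uo2 and below 2uo5 and 2uo1 for each of them. In chm/+ all midlife libraries lay above all young ones for each of them, against 4.59% of all genes. Def, the insect defensin, changed by 0.94 in chm/+ and 0.88 in wild type without passing the test. The gene that fell in chm/+ was Drsl4, a Drosomycin relative, at -0.86 (adjusted p = 0.0139), named after its value was seen. Drsl5, another Drosomycin relative, was lower in midlife chm/+ than in midlife wild type, with a log2 difference of -1.24 (SE 0.29, adjusted p = 0.0237).

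The genes of the Imd and Toll pathways had smaller median changes than the peptide genes. As background, 8.63% of all genes rose and 7.36% fell in chm/+, and 12.4% rose and 11.3% fell in wild type. Of 17 Imd pathway genes 5 rose and 0 fell in chm/+ (median 0.10), and 8 rose and 0 fell in wild type (median 0.17). Those with the smallest p were pirk, an inhibitor of the pathway (1.01 in chm/+, 0.85 in wild type), PGRP-LF, a receptor-like inhibitor (0.96 in chm/+, 1.10 in wild type), and Rel, which encodes Relish (0.78 in chm/+, 0.85 in wild type). Rel averaged 6878 ± 1242 normalized counts in midlife chm/+ and 3977 ± 443 in young chm/+, and 6792 ± 1077 in midlife and 3749 ± 513 in young wild type. In library 2uy3, where the 8 peptide genes stood high, Rel was at 4213, within the young wild-type range of 3097 to 4216. Of 20 Toll pathway genes 8 rose and 0 fell in chm/+ (median 0.14), and 13 rose and 1, Pli, fell in wild type (median 0.39). Named by the smallest p were spheroide, PGRP-SD and dl in chm/+ (1.81, 0.93 and 0.36) and spheroide, PGRP-SA and Myd88 in wild type (4.54, 1.98 and 0.47). The difference of the age changes between genotypes passed the test for 1 of the 20 Toll genes, where 0.356% of all genes passed. The Toll gene was the protease homologue gene spheroide, at -2.73 (limma, adjusted p = 0.0286, lower in chm/+). An unadjusted p under 0.05 was found for 4 of the 20 Toll genes, PGRP-SA, SPE, spheroide and nec, all lower in chm/+, against 6.66% of all genes. Of the 20 Toll estimates 3 were positive. By limma the difference passed for 0 of 17 Imd genes and 0 of 8 further peptide genes, with an unadjusted p under 0.05 for 1 in each list, against 6.66% of all genes.

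**Figure D5:**
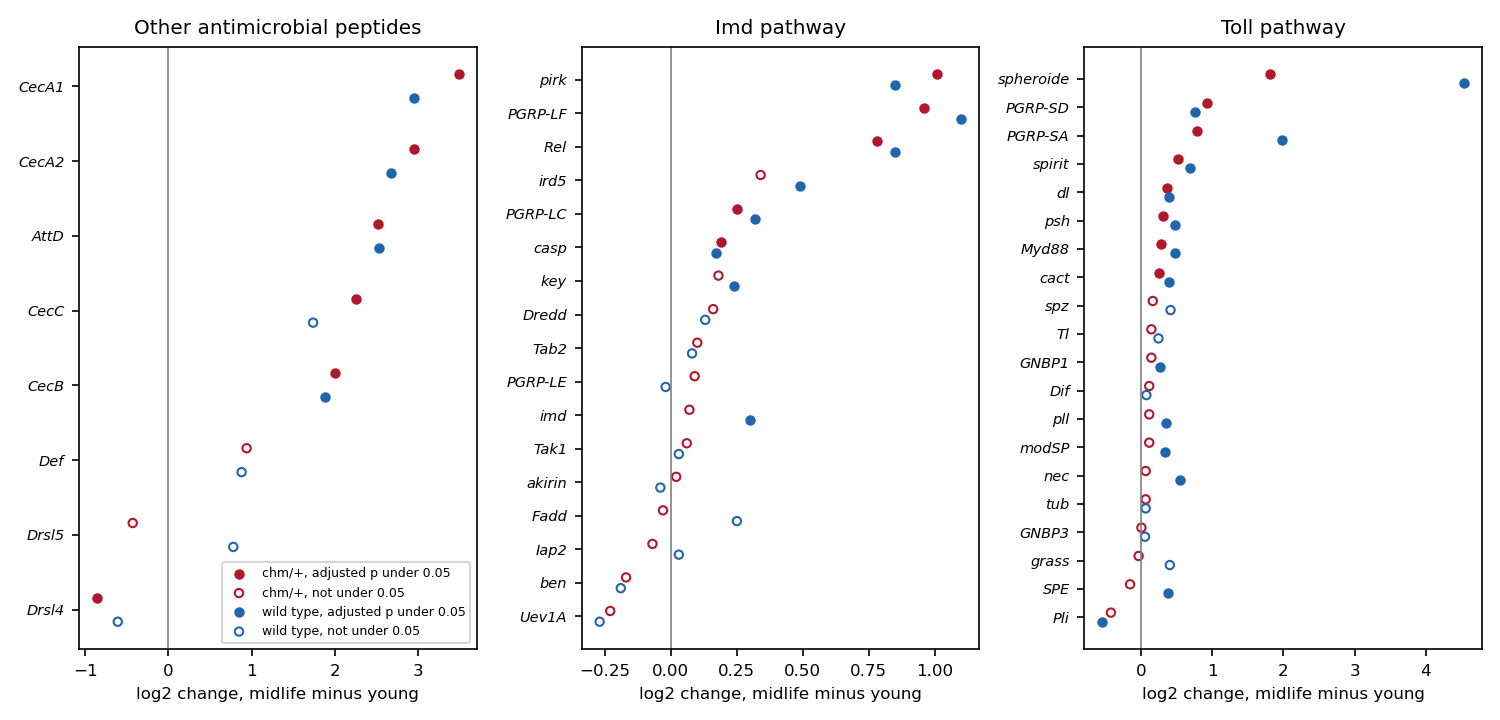
Log2 change with age (midlife minus young) of further antimicrobial peptide genes, Imd pathway genes and Toll pathway genes, in chm/+ (red) and wild type (blue); filled points had an adjusted p under 0.05 (limma). The horizontal scales differ between panels: the largest Imd change is 1.10 (PGRP-LF in wild type), and spheroide in wild type reaches 4.54.

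The genes whose pattern over the 20 libraries was most like the mean standardized level of the 8 members were PGRP-SB1 (Pearson's r = 0.946), PGRP-SC2 (0.934), pirk (0.925), CG30091 (0.92), CG4269 (0.919), CG34054 (0.918), CG4757 (0.915), CG34215 (0.911), CG5527 (0.909) and CG18067 (0.907). With each group's mean subtracted, CecC (0.859), CecA2 (0.835), PGRP-SB1 (0.824), CecA1 (0.81), CG13422 (0.799) and PGRP-SC2 (0.798) led. They were followed by CG4553 (0.733), CG43236 (0.733), CG43920 (0.704) and CG34054 (0.69). Of these, CG4553 changed by -0.16 with age in each genotype without passing the test. The extremes 2uy3 and 2uy1 were kept in these correlations. PGRP-SB1 averaged 11799 ± 7047 normalized counts in midlife chm/+ and 2736 ± 463 in young chm/+, and 7322 ± 2124 in midlife and 3029 ± 1315 in young wild type. PGRP-SB1 and PGRP-SC2 encode amidases that cleave peptidoglycan.

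Markers of other tissues and of neurons moved with age as well, and their part in the rise of the peptide genes was not tested. Of 9 gut markers 5 were in the table, and 3 of the 5, Amy-p, Amy-d and LM408, rose in both genotypes. Of all genes 8.63% rose in chm/+ and 12.4% in wild type. Mal-A1 changed by -0.22 in chm/+ and 0.35 in wild type, and Mal-A6 by 0.21 and 0.48, without passing the test. The sums of the 5 gut markers were 53484 to 83463 in midlife chm/+, 32204 to 48903 in young chm/+, 67834 to 86763 in midlife wild type and 28884 to 35725 in young wild type. The 2 amylase genes are near-identical copies, so their reads may be divided either way. Blood cell markers (7 of 8 in the table) summed to 17779 to 25624 in midlife chm/+, 16419 to 21909 in young chm/+, 21407 to 25488 in midlife wild type and 13619 to 17394 in young wild type. Of those, 0 rose and 1 fell in chm/+, where 8.63% of all genes rose and 7.36% fell, and 4 rose in wild type, where 12.4% rose. For these markers the difference of the age changes passed for 0 of 7 by limma, with an unadjusted p under 0.05 for 3, against 6.66% of all genes. Head fat body markers (8 of 9 in the table) summed to 510313 to 727093 in midlife chm/+ and 563996 to 944945 in young chm/+. Their sums were 454402 to 615662 in midlife wild type and 430908 to 695579 in young wild type. The ages overlapped in both genotypes, with the first and last sets of columns pooled. In each group the lowest fat body sum lay in the first set of columns and the highest in the last set. Fat body sums were not compared between ages within a set. Of these 8 fat body markers, 0 rose and 1 (Lsp2) fell in chm/+, where 8.63% of all genes rose and 7.36% fell. In wild type 2 (Tsf1 and fit) rose and 0 fell, where 12.4% of all genes rose and 11.3% fell. Crystal cell markers (4 of 4) summed to 1944 to 2529 in midlife chm/+, 2892 to 6833 in young chm/+, 2642 to 3814 in midlife wild type and 2871 to 4989 in young wild type. Of these 4, 0 rose and 2 (PPO1 and PPO2) fell in chm/+, and 0 rose and 0 fell in wild type, against the same shares of all genes. Between midlife genotypes 1 of 4 was called, PPO1 at -2.14 (limma, adjusted p = 0.0284), where 1.95% of all genes were. Their difference of the age changes passed for 0 of 4 by limma, with an unadjusted p under 0.05 for 2, against 6.66% of all genes. Neuron markers (7 of 7) summed to 64421 to 99966 in midlife chm/+ and 77983 to 101302 in young chm/+, with overlap, and to 54255 to 81231 in midlife wild type and 86328 to 103768 in young wild type, without overlap. Of those 7, 1 (Cha) fell in chm/+, where 7.36% of all genes fell. In wild type 4 of the 7 (nSyb, Syt1, Cha and VGlut) fell, where 11.3% of all genes fell. Of the young wild-type libraries, 2uy3 had the lowest blood cell sum, 13619, the lowest fat body sum, 430908, and the highest gut sum, 35725. The others had gut sums of 28884 to 35131. Library 2uy3 lay in the first set of columns, and 2uy5, with the highest fat body sum, in the last. Young wild-type sums also peaked in 2uy3 for amidase genes (5510), immune-induced molecule peptide genes (72805) and Turandot genes (28006). Those of the Imd and Toll lists peaked in 2uy5. What set 2uy3 apart was not tested.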

How the data were processed

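Per the submitters' processing notes, reads were mapped with TopHat2 (2.0.5) to BDGP5 and edgeR was used. Neither the counting program nor its settings are given in the sources used here, and the authors deposited 1 table of normalized counts per gene and library, a signal that need not be whole. Between 7.03% and 84.3% of values below 30 fell on whole multiples of a step (tolerance 0.02), so reads were not recovered, depth is unknown and no interval for counting error is given. Every column was mapped to its group by its header.

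Values were analysed as log2(normalized count + 14.48), where 14.48 stands for 0.5 CPM in an average library, for genes reaching 1 CPM in 4 or more libraries (0 genes removed; 226 genes had no symbol). A single limma fit (limma 3.58.1, R 4.3.3, trend) took a mean for each of the 4 groups over 20 libraries, and 5 contrasts were tested, each 2-sided with Benjamini-Hochberg adjustment over 9831 genes and a threshold of 0.05. Fold changes are therefore on this offset scale, which understates changes of low genes. The fit gave each gene 1 estimate of spread shared by the 4 groups. Young wild type was the most spread group for each member, so the wild-type SEs draw on tighter groups and may be too small. The script was tested on simulated data.

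The members and gene lists were chosen with earlier results of these data known. All 8 members are named in every comparison. From the Imd, Toll and other peptide lists up to 3 called genes with the smallest p per comparison are named, and the 10 most correlated genes by likeness. Other genes of these lists are named where they complete a count or a gene family. Exon lengths came from the Ensembl BDGP6 annotation (7 genes matched by ID, Drs by symbol), and neighbours from the RefSeq Release 6 gene table. The deviations of same-numbered chm/+ columns of the 2 ages were positively correlated, 2 of the 4 weakly (r = 0.64, 0.20, 0.17 and 0.36). Column numbers were therefore taken as pairs in an alternative fit only. The main fit held neither pairs nor column sets, so its p-values ignore both. Each of these 4 pairs also lay within the same 10 columns of the table, so these pairs alone cannot separate a shared number from a shared column set. Same-numbered pairs of young genotypes within a column set had r = 0.66 and 0.36. Those in different column sets had -0.52 and -0.41 between young genotypes and 0.41 and 0.13 between midlife genotypes. The same-numbered wild-type pairs of the 2 ages, also in different sets, had -0.47, -0.16, -0.53 and 0.35. Which of the 2 the correlations follow was not tested. Alternatives were other addends, filters and scalings, array weights, fits on fewer groups, the first or last 10 columns, the column set as a term, the column number as a block, and each library left out.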

Additional observations from a re-analysis of the deposited data

Results flagged for a closer look

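Drs in young wild type was singled out because its highest library, 2uy3 at 4939 normalized counts, lay far from the others, which ran from 236 to 579.7. On the log2 scale used for the tests, the gap to the nearest library was 0.71 of the range over 5 libraries. AttC in young chm/+ was singled out because its highest library, CHMy4 at 2576, lay far from the others, which ran from 766 to 1143, with a gap of 0.67 of the range over 6 libraries on the same log2 scale. In all, 32 sets of libraries (8 genes in 4 groups) were examined in this way, and chance alone singles out about 1 in 20.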

How the results depend on the processing

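The count of members that rose in wild type was 8 as reported and fell to 5 in the first 10 columns alone and 3 in the last 10 alone, both fits with fewer libraries. With 1 library left out it ran from 6 to 8, and with only the 2 groups compared it was 6. In chm/+ it ran from 7 to 8 over all alternatives and was 8 whichever library was left out. In the genotype contrasts and in the difference of the age changes it was 0 under every alternative, and no called change reversed. When column numbers were fitted as a replicate block the count was 8 in chm/+ and 7 in wild type, where the same libraries unpaired gave 8; the member lost was Dpt, and the block changed no other call. The deviations of same-numbered wild-type columns had r = -0.47, -0.16, -0.53 and 0.35. Each of those pairs lay in different column sets, so the values cannot show whether a shared number matters there. Counts over all genes moved more: 2329 in wild type as reported, against 3167 in the first 10 columns and 408 in the last 10, 1945 with only the groups compared, and 762 under the block, where the same libraries unpaired gave 1487. With the column set as a term the count over all genes was 3090 in wild type, and 2203 against 1572 as reported in chm/+. The members called were then 8 in each genotype. With array weights the count over all genes was 3758 in wild type, 100 against 35 as reported for the difference, 626 against 192 between midlife genotypes and 3194 against 143 between young genotypes, with 0 members called in those 3 contrasts between genotypes. Without 2uo2, CHMo12 and CHMy2 the median log2 difference of the members was 1.2 for the age changes, 0.78 in midlife and -0.39 in young heads. Groups of 4 to 6 libraries with up to 138-fold spread limit what the genotype contrasts can show, and the depth of the libraries is unknown.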

Other observations

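Of 7 immune-induced molecule peptide genes in the table, which encode short secreted peptides found in the blood of infected flies, 5 rose with age in chm/+ (median 1.03), where 8.63% of all genes rose, and 2 in wild type (median 0.80), where 12.4% of all genes rose. IM23 changed by 2.89 in chm/+ and 1.32 in wild type, and IM10 by 1.32 in chm/+ and 1.02 in wild type. Of 5 Turandot genes, which encode secreted stress peptides, 4 rose in chm/+ (median 1.39) and 5 in wild type (median 2.97), against the same shares of all genes. The difference of the age changes passed the test by limma for 0 of the 7 immune-induced genes and 0 of the 5 Turandot genes, with an unadjusted p under 0.05 for 1 immune-induced gene and 3 Turandot genes, against 6.66% of all genes.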
